A study of Mus musculus with 14 samples.

Results

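The clustered protocadherins are the 57 protein-coding genes on mouse chromosome 18 whose symbols begin with Pcdha, Pcdhb or Pcdhg, out of 21887 protein-coding genes on nuclear chromosomes in the gene table of assembly GRCm38.p6 (mm10). They were taken by symbol alone: 14 Pcdha genes (18:36930285-37188897), 22 Pcdhb genes (18:37264998-37521419) and 21 Pcdhg genes (18:37661775-37841873). Clustered protocadherins are cadherin-family adhesion proteins of the cell surface, best known from neurons, where each cell uses its own combination of isoforms and neurites of the same cell recognise and avoid each other. In the Pcdha and Pcdhg clusters every gene contributes a variable first exon with its own promoter, which is spliced to constant exons shared by the whole cluster, whereas Pcdhb genes are single-exon genes. The promoters are chosen by DNA looping with CTCF and cohesin, and silent members are held down by DNA methylation and repressive histone marks. The heart is not a tissue these genes are known for.

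Hearts of C57BL/6J mice gave cells enriched for cardiomyocytes, and their chromatin was immunoprecipitated with antibodies against G9a (the H3K9 methyltransferase encoded by Ehmt2), its product H3K9me2, and H3K27me3, the mark of Polycomb repression. One group was labelled sham and carried no treatment. The other had transverse aortic constriction, a surgical narrowing that loads the left heart, for 1 week. Each antibody had 2 biological replicates per condition, and there was 1 input library per condition (14 libraries in all); the labels give neither age nor sex. The cells were enriched, not pure, so a region can come from any cell type present, and fewer cells of a type cannot be told apart from less signal per cell. The authors' deposited table of each antibody holds regions called as differing between sham and constriction. Each region carries 4 whole numbers, those of one pair of libraries (called first here, by their place in the table) and those of the other (second). No source names the pair that is sham, so every direction below is given by pair. A gene without a listed region may lack the mark or may carry it at a like level in both pairs, since the tables hold differing regions only.

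Regions were taken where they overlap the annotated gene body plus 2500 bp on either side, each once. That gave 96 of 388424 G9a regions, 72 of 245088 H3K9me2 regions and 181 of 552542 H3K27me3 regions. Library sums over all listed G9a regions lay between 36881071 and 48327896, those of H3K9me2 between 22175663 and 23973355, and those of H3K27me3 between 112764904 and 143213031. Read depths were not given in the sources used. One G9a library, number 1 of the second pair, had 9.34% of its values at 0, where the other 3 had 0.163% to 1.40%. G9a counts of direction and G9a sums of the clusters are therefore also given without it. The largest deposited p in any table was 0.01. limma, fitted to all regions of each table, called 0 regions at an adjusted p of 0.05 in any table, in or out of the clusters (percent called 0.0% in each direction), so the directions below rest on the authors' selection and on the 4 values themselves. At an unadjusted p under 0.05, limma gave 4 first-pair and 1 second-pair of the 96 G9a regions of the clusters, 6 and 1 of the 72 H3K9me2 regions, and 8 and 8 of the 181 H3K27me3 regions. The whole-table shares at that threshold were 2.67% (first pair higher) and 1.27% (second) for G9a, 5.62% and 3.13% for H3K9me2, and 8.92% and 3.36% for H3K27me3. With 2 libraries against 2, an exact permutation test, two-sided, cannot go below p = 0.333. Among cell type markers, 0 of 7 cardiomyocyte genes had an H3K27me3 region in body plus 2500 bp, against 6 of 7 neuron and Schwann cell, 4 of 4 endothelial, 4 of 4 fibroblast, 3 of 3 smooth muscle and pericyte and 2 of 3 leukocyte genes. Of all protein-coding genes, 58.3% had a first-pair and 50.4% a second-pair one. In the same order of cell types, G9a regions were at 4, 6, 4, 3, 3 and 2 genes. Of all protein-coding genes, 76.7% had a first-pair and 55.5% a second-pair G9a region. H3K9me2 regions were at 2, 4, 4, 3, 3 and 2, beside 48.1% and 38.8% of all protein-coding genes. The marker counts take a region of either direction, so no share of all genes on the same measure is given. The part of other cell types in the results was not tested.

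Listed H3K27me3 regions, those that differed between the pairs, were spread unevenly over the locus. Listed H3K27me3 regions covered 42.7% of the Pcdha windows and 43.7% of the Pcdhb windows, but 0.567% of the Pcdhg windows, beside 19.7% over the windows of all protein-coding genes. There were 106 regions at Pcdha, 72 at Pcdhb and 3 at Pcdhg, which is 40.2, 45.6 and 1.62 per 100 kb of window. The drop in listed regions came just before the Pcdhg cluster. The stretch between Pcdhb and Pcdhg was still covered to 41.5%, the last region before the start of Pcdhga1 ended 9.22 kb upstream of it (18:37652101-37652550), and the 191.8 kb from there to the end of the Pcdhg windows held 3 regions. Within Pcdhg the longest stretch without an H3K27me3 region ran for 116.0 kb and took in 13 member starts, from Pcdhga5 to Pcdhgc3. In the 100 kb beyond Pcdhg, coverage was 0.4%. Listed G9a and H3K9me2 regions were also sparser at Pcdhg, by a smaller margin. G9a regions covered 12.7% of the Pcdha, 14.0% of the Pcdhb and 4.08% of the Pcdhg windows (11.1% over all genes), and H3K9me2 regions 11.3%, 9.8% and 1.76% (4.71% over all genes). No replicate test exists for coverage, because only regions called as differing are listed. Ground without one may carry the mark at a like level in both pairs, so the extent of the mark itself was not tested.

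**Figure D1:**
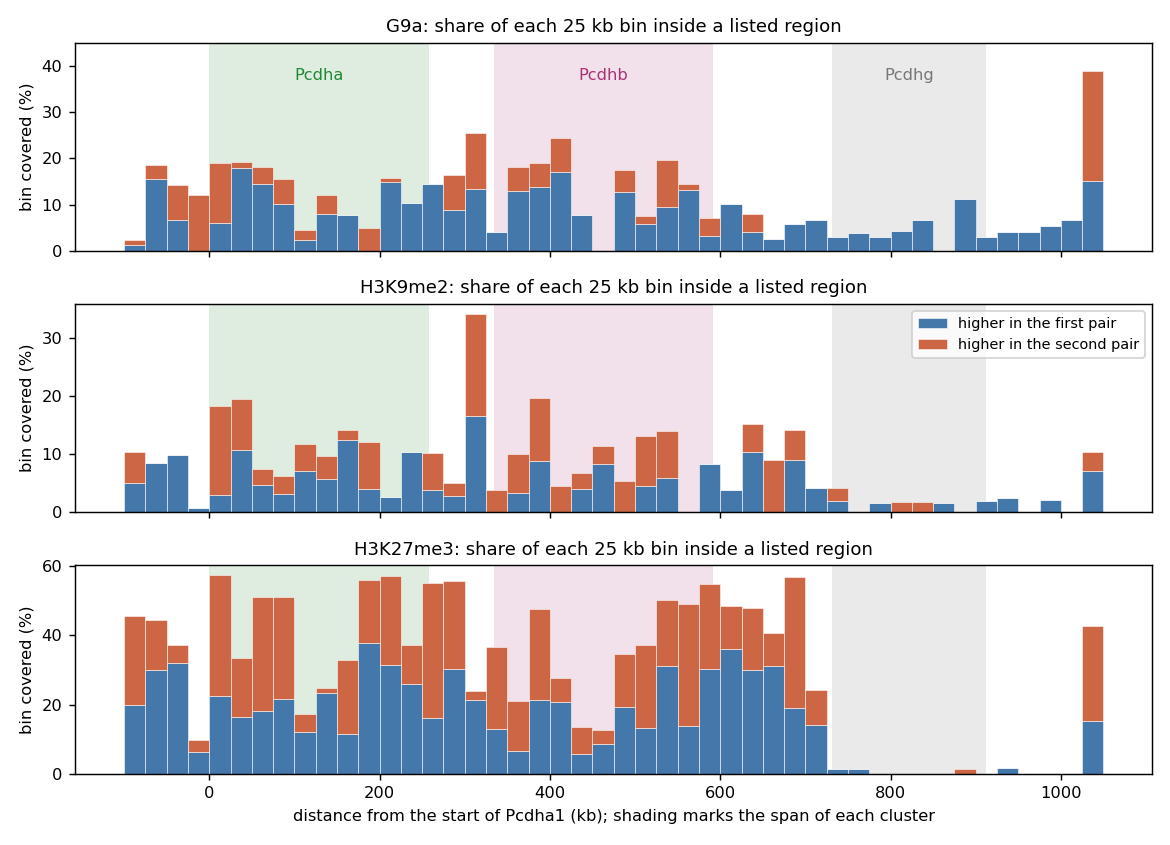
Share of each 25 kb bin (vertical axis, percent) inside a listed region of each table, stacked by direction, against the distance from the start of Pcdha1 (horizontal axis, kb); shading marks the span of each cluster. Coverage by listed (differing) H3K27me3 regions runs across Pcdha, Pcdhb and the stretch behind them. It stays at or under 1.4% in every bin from 725 to 925 kb, where the Pcdhg cluster lies.

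At Pcdha, most starts of the variable exons lay inside an H3K27me3 region higher in the second pair. Of the 63 regions higher in the first pair, 47 lay more than 2500 bp from any start, as did 25 of the 43 higher in the second. Ground within 2500 bp of a start made up 26.6% of the Pcdha window. The start of a Pcdha gene is the low-coordinate end of its annotated body, since the 14 starts are spread over 213393 bp while the ends lie within 1240 bp of each other. 9 of the 14 Pcdha starts (64.3%) lay inside an H3K27me3 region higher in the second pair, and 3 (21.4%, Pcdha3, Pcdha5 and Pcdha6) inside one higher in the first. Over protein-coding genes with a known strand these shares were 20.9% and 5.34%. Both shares were thus higher at Pcdha, and the second-pair share was the larger one over all genes too. The 9 were Pcdha2, Pcdha7 to Pcdha12, Pcdhac1 and Pcdhac2. Their log2 differences, computed here from the authors' deposited table as second over first pair mean with a pseudocount of 1, ran from 0.31 to 1.08, and in 7 of the 9 both second-pair values exceeded both first-pair values.

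Pcdhac2, a C-type member that neurons use constitutively, had the widest of these regions (18:37142251-37146750, 4500 bp). The authors' deposited table put it at 2106 and 1453 for the first pair, then 2820 and 2236 for the second (log2 0.51, deposited p = 3.36e-29). The other C-type member, Pcdhac1, had 1185 and 1075, compared with 1930 and 1527 in the authors' deposited table (18:37089351-37092950, log2 0.61). In both regions the pairs did not overlap, beside 69.2% of all H3K27me3 regions. At Pcdha8 the authors' deposited table gave 633 and 630 against 1214 and 982 (18:36992451-36995650, log2 0.80). At Pcdha11 it gave 762 and 524 against 1017 and 1207 (18:37010601-37013300, log2 0.79). At Pcdha2 it gave 368 and 223 against 606 and 647 (log2 1.08), the largest difference of the 9. Pcdha7, with 214 and 253 against 452 and 238, and Pcdha12, with 343 and 245 against 338 and 393, were the 2 members of this group whose pairs overlapped in the authors' deposited table. Pcdha5 went the other way without overlap, with 359 and 166, compared with 116 and 141 in the authors' deposited table (log2 -1.02), while at Pcdha3 and Pcdha6 the pairs overlapped.

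Among the 106 H3K27me3 regions of Pcdha, 63 were higher in the first pair. The 3 of these with the smallest deposited p were led by one 9273 bp downstream of the Pcdhac2 start (18:37152951-37155200, 918 and 461, compared with 174 and 264 in the authors' deposited table; log2 -1.65, p = 1.31e-55). The second ended 1317 bp upstream of the Pcdha8 start (18:36990051-36991150), with 425 and 165, compared with 127 and 34 in the authors' deposited table (log2 -1.86). The third lay 10336 bp upstream of the Pcdhac1 start (18:37078651-37079800), with 420 and 211, compared with 69 and 122 in the authors' deposited table (log2 -1.71). None of the 3 had overlapping pairs, as in 69.2% of all H3K27me3 regions. Opposite directions thus stood close together at Pcdha8, and several kb apart at Pcdhac1 and Pcdhac2.

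Of 34 H3K27me3 regions within 2500 bp of a Pcdha start, 18 were higher in the second pair (52.9%); of the other 72, 25 were (34.7%). Over genes with a known strand these shares were 59.0% and 46.5%. Near the starts the values of the authors' deposited table summed to 14225 and 10881 for the first pair and to 17287 and 13719 for the second, and elsewhere to 13804 and 10637 against 10807 and 9172. The log2 ratio of the near to the other sum was 0.04 and 0.03 for first-pair libraries and 0.68 and 0.58 for second-pair ones, a shift of 0.59 without overlap (exact permutation test, two-sided, p = 0.333, the smallest possible). Over all genes with a known strand the same ratio was -1.79 and -1.70 against -1.49 and -1.45, a shift of 0.27. Whether the 2 shifts differ was not tested. In total, Pcdha values were nearly level between the pairs, at 28029 and 21518, compared with 28094 and 22891 in the authors' deposited table (log2 0.04, p = 0.667 by the exact permutation test).

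**Figure D2:**
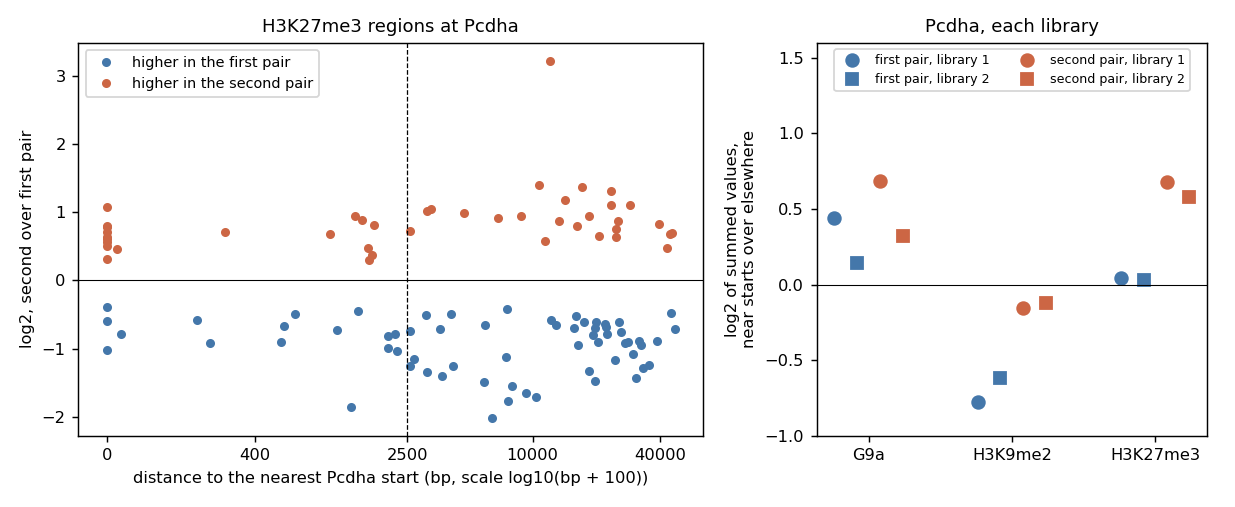
Left: H3K27me3 regions at Pcdha by distance to the nearest member start (horizontal axis, bp on a log scale; the dashed line marks 2500 bp) and log2 difference between the pairs (vertical axis); 18 of the 34 regions left of the line and 25 of the 72 right of it are above 0. Right: log2 ratio of summed values near starts to those elsewhere in each library; for H3K27me3 both second-pair libraries (0.68 and 0.58) lie above both first-pair libraries (0.04 and 0.03), and for G9a the pairs overlap.

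At Pcdhb, H3K27me3 regions were more often higher in the second pair: 43 of 72 (59.7%), against 42.7% of the whole table. Of the 72, 57 had pairs that did not overlap (79.2%, beside 69.2% of all H3K27me3 regions), 37 of these higher in the second pair and 20 in the first. The lean was seen over the gene bodies. Of 46 regions touching a Pcdhb gene body, 31 were higher in the second pair, with summed values of 9224 and 7987, compared with 12486 and 10810 in the authors' deposited table (log2 0.44). Of 26 regions that touched only the flanks, 12 were, with sums of 3561 and 2740, compared with 3057 and 2471 in the authors' deposited table (log2 -0.19). All 22 Pcdhb genes had a second-pair H3K27me3 region in body plus 2500 bp (50.4% of all protein-coding genes), and 16 had a first-pair one (58.3%). Neighbouring Pcdhb genes share some of these regions. Pcdhb genes are close copies of each other, and no source used here says how the authors placed reads that match several copies, so values at single Pcdhb genes are uncertain.

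Pcdhb1, the first gene of the cluster, held the second-pair region with the smallest deposited p (18:37264151-37266950). The authors' deposited table gave it 569 and 385 against 1266 and 911 (log2 1.19, p = 2.03e-53), and the start of the gene lay inside it. Pcdhb20 followed with 290 and 120 against 506 and 509 (18:37505601-37507200, log2 1.30), and Pcdhb16 with 186 and 278 against 460 and 631 (18:37480101-37482250, log2 1.23) in the authors' deposited table. In all 3 the pairs did not overlap. Among regions higher in the first pair, one in Pcdhb12 had 496 and 295 against 197 and 40 (18:37435701-37437100, log2 -1.73), and one just upstream of Pcdhb21 had 677 and 475 against 216 and 275 (18:37510751-37513300, log2 -1.23). Another lay between genes, 4594 bp from the start of Pcdhb14, with 194 and 69, compared with 20 and 18 in the authors' deposited table (log2 -2.73). Only 4 of 22 Pcdhb starts lay inside a second-pair H3K27me3 region (18.2%; Pcdhb1, Pcdhb13, Pcdhb18 and Pcdhb19), near the 20.9% of all genes. The largest difference at these 4 was at Pcdhb19, where first-pair library 2 was low (116 and 9, compared with 126 and 259 in the authors' deposited table).

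The 3 H3K27me3 regions at Pcdhg were short, each 350 bp long. One, between the starts of Pcdhgb2 and Pcdhga5 (18:37691551-37691900), had 93 and 80 for the first pair and 0 and 1 for the second, as the authors' deposited table gives them (p = 1.95e-25). It had the smallest limma p of all cluster regions, with an unadjusted p of 1.56e-04 and an adjusted p of 0.164. One near Pcdhga3 had 78 and 55, compared with 13 and 38 in the authors' deposited table (18:37676151-37676500), without overlap. One near Pcdhgc3 had 35 and 18, compared with 35 and 81 in the authors' deposited table (18:37807651-37808000), and there the pairs overlapped. Pcdhgc3 is a C-type member; Pcdhgc4 and Pcdhgc5, the other C-type members of the cluster, had no H3K27me3 region in body plus 2500 bp, whereas the starts of both C-type members of Pcdha lay inside one.

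**Figure D3:**
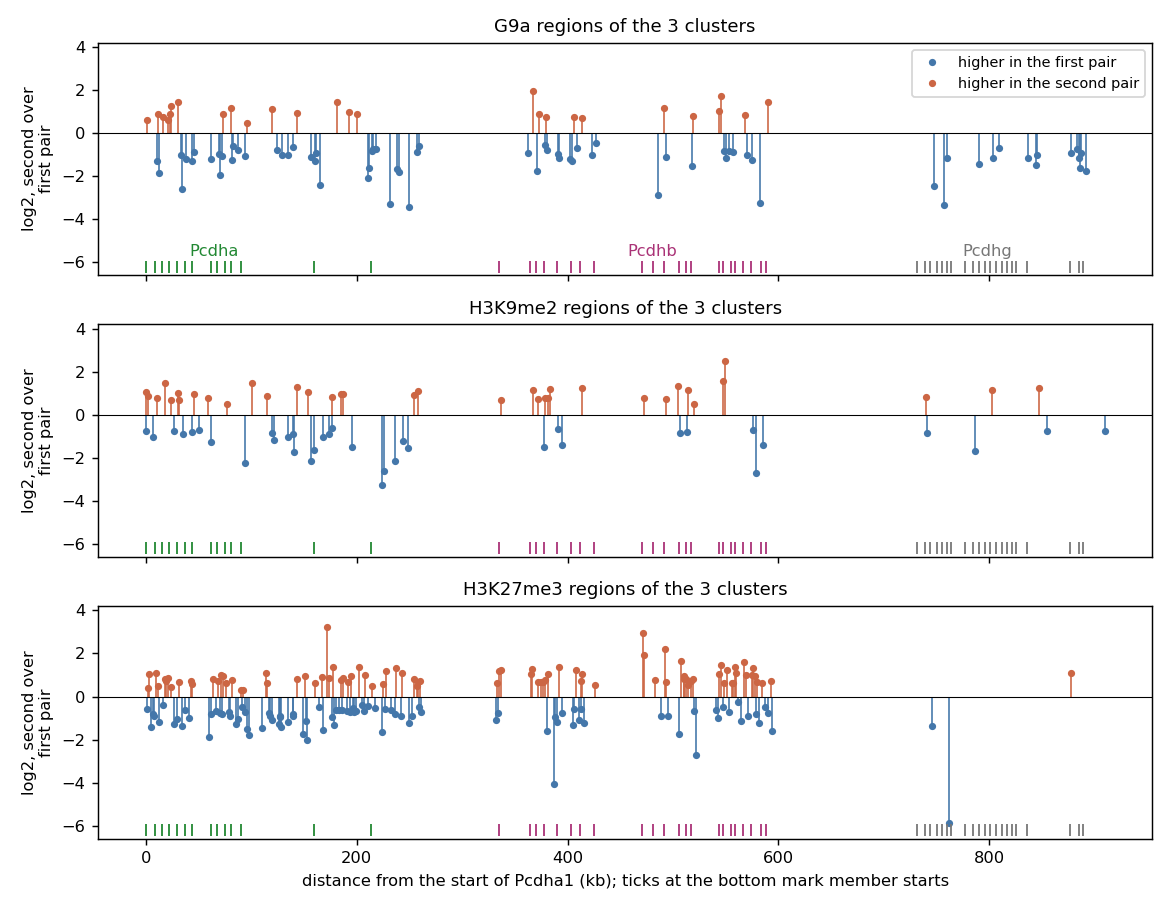
Every listed region of the 3 clusters, placed by the distance of its midpoint from the start of Pcdha1 (horizontal axis, kb), with its log2 difference, second over first pair (vertical axis); regions between the clusters are not drawn. H3K27me3 has 106 and 72 regions at Pcdha and Pcdhb and 3 at Pcdhg, and all 15 G9a regions of Pcdhg lie below 0.

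H3K9me2, the mark that G9a places, differed in its ratio between Pcdha and Pcdhb. At Pcdha 19 of 43 regions were higher in the second pair (44.2%), the same share as in the table (44.4%), and at Pcdhb 14 of 22 were (63.6%). The authors' deposited table summed to 4624 and 4565 against 4082 and 4018 at Pcdha (log2 -0.18, or -0.12 after division by library sums), with both first-pair libraries above both others. At Pcdhb they were 2044 and 1785 against 2492 and 2562 (log2 0.40), with both second-pair libraries above. The log2 ratio of Pcdha to Pcdhb sums was 1.18 and 1.35 for first-pair libraries and 0.71 and 0.65 for second-pair ones, a shift of -0.59 without overlap (exact permutation test, two-sided, p = 0.333; adjusted over 9 cluster comparisons, 0.375). Across all H3K9me2 regions the summed values of the pairs differed by a log2 value of -0.07.

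The H3K9me2 region of Pcdha with the smallest deposited p lay 10173 bp beyond the Pcdhac2 start (18:37153851-37154500), inside the first-pair H3K27me3 region described there. The authors' deposited table gave it 70 and 234 against 30 and 0 (log2 -3.26, p = 8.03e-28). A region 3871 bp from the Pcdha12 start had 149 and 199 against 36 and 36 (18:37024101-37024900, log2 -2.24), and the one over the Pcdhac1 start had 154 and 180 against 26 and 81 (18:37089751-37090500, log2 -1.62) in the authors' deposited table. At the Pcdhac1 start H3K9me2 was thus higher in the first pair while H3K27me3 was higher in the second. Second-pair regions included one at Pcdha3, with 65 and 76, compared with 107 and 291 in the authors' deposited table (18:36947801-36948500, log2 1.48). Among second-pair regions of Pcdhb, the lowest p values of the authors' deposited table were at Pcdhb16 (56 and 3 against 140 and 207; 18:37479401-37480200, log2 2.52), Pcdhb7 (75 and 106 against 268 and 163; 18:37342951-37344100, log2 1.24) and Pcdhb13 (100 and 66 against 103 and 269; 18:37444151-37444900, log2 1.15), without overlap of the pairs (67.9% of all H3K9me2 regions). At Pcdhb16, first-pair library 2 stood at 3. The leading first-pair region of Pcdhb lay 4202 bp from the start of Pcdhb21 (18:37509101-37509450), with 75 and 64, compared with 8 and 12 in the authors' deposited table (log2 -2.68, p = 3.10e-11), again without overlap.

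Within 2500 bp of Pcdha starts the H3K9me2 ratio shifted in the same direction as that of H3K27me3, but within 1000 bp the directions were opposite. The log2 ratio of values within 2500 bp of a start to those elsewhere was -0.78 and -0.61 for first-pair libraries and -0.15 and -0.13 for second-pair ones, a shift of 0.56 (exact permutation test, two-sided, p = 0.333). With a distance of 1000 bp the shift was -0.39, where that of H3K27me3 was 0.63. Over all genes with a known strand the H3K9me2 shift at 2500 bp was 0.12. No member start lay inside a second-pair H3K9me2 region (2.06% of genes), and 3, those of Pcdha1, Pcdha8 and Pcdhac1, lay inside a first-pair one (2.04%). Pcdhg had 7 H3K9me2 regions, 4 higher in the first pair and 3 in the second, and sums that overlapped between the pairs (441 and 372, compared with 417 and 363 in the authors' deposited table). At Pcdhga2, 2 adjoining regions of the authors' deposited table had opposite directions, with 72 and 92 against 57 and 34 in one (18:37670901-37671400) and 37 and 67 against 108 and 79 in the other (18:37670351-37670900).

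G9a regions at the clusters were mostly higher in the first pair: 34 of 49 at Pcdha, 21 of 32 at Pcdhb and 15 of 15 at Pcdhg. Of the whole table, 55.5% was higher in the first pair and 44.5% in the second. The ground on either side of Pcdhg had the same direction. There, 13 of 14 G9a regions between Pcdhb and Pcdhg and 10 of 10 in the 100 kb beyond were higher in the first pair. The counts were 9 of 17 between Pcdha and Pcdhb, 9 of 18 in the 100 kb before Pcdha, and 12 of 17 between the Pcdhb windows. Library 1 of the second pair was low in all 3 clusters. With the direction taken without it, the counts higher in the first pair were 35 of 49, 18 of 32 and 11 of 15. These were 71.4%, 56.2% and 73.3%, beside 51.9% of the table, so the Pcdhb share was near that of the table. At Pcdhg the median of that library was 4.0, against 84.0, 90.0 and 55.0, and 6 of its 15 values were 0. Pairs did not overlap in 31 of the Pcdha, 15 of the Pcdhb and 6 of the Pcdhg regions (63.3%, 46.9% and 40.0%), beside 61.3% of all G9a regions. The authors' deposited table summed to 5827 and 5427 against 2443 and 4857 at Pcdha (log2 -0.62), with both first-pair libraries above both others. At Pcdhg they were 1252 and 1317 against 157 and 876 (log2 -1.31), again without overlap. At Pcdhb they were 3656 and 3390 against 1807 and 3881 (log2 -0.31), and the pairs overlapped. Without library 1 of the second pair the differences were -0.21, -0.55 and 0.14, so the Pcdhb value changed sign. Without library 2 of the second pair, which leaves the low library alone in its pair, the differences were -1.20 at Pcdha, -0.96 at Pcdhb and -3.03 at Pcdhg.

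At Pcdha the first-pair G9a regions with the smallest deposited p were near Pcdha9 (322 and 216 against 46 and 94; 18:37000351-37001550, log2 -1.93), at Pcdha6 (497 and 454 against 86 and 327; 18:36967701-36969900, log2 -1.20) and upstream of Pcdhac2 (264 and 295 against 79 and 103; 18:37141351-37142600, log2 -1.61) in the authors' deposited table. None had overlapping pairs, and in each library 2 of the second pair was also below both first-pair values. Without library 1 of the second pair the Pcdha6 difference was -0.54, and those near Pcdha9 and Pcdhac2 were -1.51 and -1.43. The Pcdhac2 region overlaps the wide H3K27me3 region that was higher in the second pair. Second-pair G9a regions at Pcdha were led by Pcdha4 (54 and 42, compared with 68 and 167 in the authors' deposited table; 18:36953851-36954400, log2 1.27, and 0.49 without library 2 of the second pair). Starts inside a G9a region were those of Pcdha7, Pcdha8, Pcdhb5, Pcdhb6 and Pcdhgc4 for the first pair (5.48% of genes) and of Pcdha11 for the second (9.54%), also without library 1 of the second pair. At Pcdhb, the second-pair region of Pcdhb2 had 49 and 73, compared with 259 and 223 in the authors' deposited table (18:37296701-37297600, log2 1.96, p = 3.26e-25). It was higher in both second-pair libraries by a wide margin. Pcdhb15 followed with 53 and 55, compared with 97 and 259 in the authors' deposited table (18:37475001-37475850, log2 1.70, and 0.83 without library 2 of the second pair). The first-pair region of Pcdhb3 had 156 and 321, compared with 0 and 142 in the authors' deposited table (18:37301001-37302150), and its log2 difference went from -1.73 to -0.74 without library 1 of the second pair. At Pcdhg, the leading region between the starts of Pcdhga4 and Pcdhgb2 had 202 and 35, compared with 3 and 19 in the authors' deposited table (18:37687351-37687900, log2 -3.32), and -1.58 without library 1 of the first pair. The next, at Pcdhgc4, had 139 and 90, compared with 49 and 24 in the authors' deposited table (18:37815601-37816200, log2 -1.62), with both second-pair libraries below both first-pair ones.

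**Figure D4:**
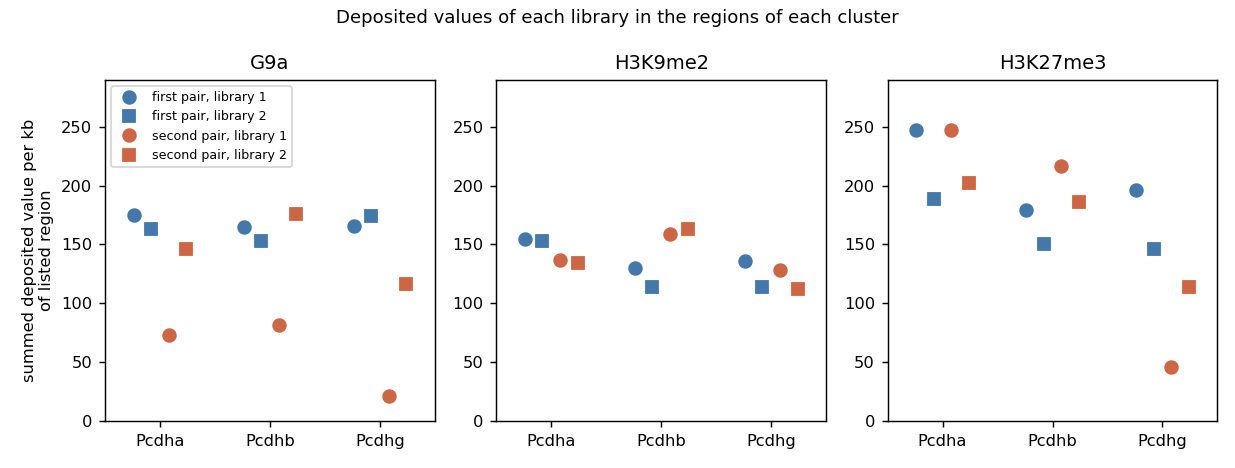
Summed deposited value per kb of listed region (vertical axis) in each library (points), for the regions of each cluster in each table; no error bar is drawn, since each point is 1 library. Library 1 of the second G9a pair lies lowest in every cluster (73.3, 81.8 and 20.8), and the H3K9me2 pairs stand in opposite order at Pcdha and Pcdhb.

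The H3K27me3 sums of the authors' deposited table at Pcdhb were 12785 and 10727 against 15543 and 13281 (log2 0.29), with both second-pair libraries above both others, and across all H3K27me3 regions the pairs differed by 0.16. The ratio of Pcdha to Pcdhb sums was lower in the second pair in each table, with a log2 shift of -0.30 for G9a, -0.59 for H3K9me2 and -0.25 for H3K27me3, without overlap of the pairs. Comparisons with Pcdhg gave larger shifts for H3K27me3 (1.27 for Pcdha and 1.52 for Pcdhb), which rest on 3 short regions, and for G9a (1.08 and 1.38), where library 1 of the second pair was low. Of the 9 cluster comparisons, 8 did not overlap between the pairs, and none could pass a threshold with these numbers (exact permutation p = 0.333 in the 8 and 0.667 in the other; adjusted 0.375 and 0.667). A share of 0.333 of the possible arrangements of 4 libraries gives no overlap. Comparisons within a table use the same sums, and the regions were listed as differing, so the 8 do not count as separate results.

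At Pcdha and Pcdhb most G9a and H3K9me2 regions overlapped an H3K27me3 region. G9a regions overlapped H3K9me2 regions at 28.6% of 49 (Pcdha) and 34.4% of 32 (Pcdhb), 30.2% and 36.4% in return. At Pcdhg 0 of 15 did. Over the whole tables the shares for G9a and H3K9me2 were 19.8% and 31.2%. Pcdhg had only 3 H3K27me3 regions, covering 0.567% of its windows, so there was little room for overlap with them there. H3K27me3 regions covered 42.7% of the Pcdha and 43.7% of the Pcdhb windows, beside 19.7% over all genes, which left more room for overlap. Overlap beyond that given by coverage was not tested. Of 49 G9a regions at Pcdha 77.6% overlapped an H3K27me3 region (35.8% of the 106 H3K27me3 regions in return), and of 32 at Pcdhb 81.2% did (34.7% in return). At Pcdhg 1 of 15 did (33.3% of the 3 H3K27me3 regions in return). Over the whole tables these shares were 55.7% and 35.5%. H3K9me2 regions overlapped H3K27me3 regions at 76.7% of 43 (Pcdha) and 90.9% of 22 (Pcdhb), 32.1% and 34.7% in return, against 52.1% and 23.2% over the whole tables, and at 0 of 7 at Pcdhg. Of 64 overlapping pairs of H3K9me2 and H3K27me3 regions in the clusters, 46 had the same direction (71.9%, and 54.9% over the whole tables), 28 of them higher in the second pair. Of 77 overlapping pairs of G9a and H3K27me3 regions, 41 had the same direction (53.2%, and 62.3% over the whole tables). Of 25 pairs of G9a and H3K9me2 regions, 18 had (72.0%, and 56.6% over the whole tables). Omitting the low G9a library gave 41 of 77 and 17 of 25. Stretches listed in all 3 tables numbered 13 at Pcdha, 12 at Pcdhb and 0 at Pcdhg. Some of them are not separate, since stretches at Pcdhb7 share the same G9a region and the same H3K9me2 region. Some were only 50 bp long, and no share over the whole tables is given for their directions. At Pcdhb 7 of the 12 were higher in the second pair in all 3 tables, among them stretches in Pcdhb2, Pcdhb3, Pcdhb4, Pcdhb7, Pcdhb11 and Pcdhb14, and 1, at the start of Pcdhb5, was higher in the first. At Pcdha 4 of 13 were higher in the second pair in all 3 tables, at Pcdha1, Pcdha2, Pcdha4 and 15586 bp upstream of Pcdhac1, 4 were higher in the first, and 5 were mixed. Without library 1 of the second G9a pair, the stretch at Pcdha2 left the first of these groups, which then numbered 3, and the counts at Pcdhb were as before. The libraries of the 3 antibodies may come from the same hearts, which the labels do not say.

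Counted by member, within 2500 bp of the start, every Pcdha and Pcdhb gene had a listed region in at least 1 table, with 3 to 8 regions per Pcdha gene and 1 to 9 per Pcdhb gene. Pcdha2 had the most in its cluster and Pcdhb16 in its own. Of the 21 Pcdhg genes, 15 had a region, and Pcdhga1, Pcdhga6, Pcdhga8, Pcdhga10, Pcdhgb7 and Pcdhga11 had none. Pcdhgc4 had 4, all from the G9a table and higher in the first pair. For H3K27me3, 13 of 14 Pcdha genes (all but Pcdha6), 21 of 22 Pcdhb genes (all but Pcdhb6) and 1 of 21 Pcdhg genes (Pcdhgc3) had a second-pair region there, beside 38.3% of protein-coding genes. First-pair H3K27me3 regions were at 12 of 14, 14 of 22 and 3 of 21 (31.8% of genes). For H3K9me2 the counts were 7, 11 and 2 genes in the second pair (11.7% of genes) and 7, 6 and 2 in the first (14.4%). For G9a they were 7, 11 and 0 in the second (32.5%) and 9, 14 and 11 in the first (38.1%). Without library 1 of the second pair the G9a counts were 7, 13 and 5 in the second (36.1%) and 10, 12 and 7 in the first (34.7%). Starts lie close together in these clusters, so neighbouring members can share a region. Regions from all 3 tables were present at 10 of 14 Pcdha, 10 of 22 Pcdhb and 0 of 21 Pcdhg genes, beside 12.7% of protein-coding genes with a known strand.

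The genes between and beside the clusters also carried listed regions. Slc25a2, a mitochondrial carrier gene, and Taf7, a subunit of the general transcription factor TFIID, lie between Pcdhb and Pcdhg, and shared a G9a region with 219 and 161, compared with 11 and 103 in the authors' deposited table (18:37637901-37638850, log2 -1.72). Taf7 also had the H3K27me3 region 18:37646501-37648350, with 891 and 501, compared with 690 and 286 in the authors' deposited table and overlapping pairs. Diaph1, a formin gene next to Pcdhg, had 8 G9a regions, all higher in the first pair, and 1 H3K27me3 region. Of the 30 other protein-coding genes within 500 kb of the clusters, 27 had a first-pair and 14 a second-pair G9a region (76.7% and 55.5% of all genes), 6 and 4 had H3K9me2 regions (48.1% and 38.8%), and 12 and 10 had H3K27me3 regions (58.3% and 50.4%).

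Of the 12 non-clustered protocadherins, relatives encoded by separate genes outside the clusters, 11 had a first-pair and 11 a second-pair H3K27me3 region in body plus 2500 bp. G9a regions were at 10 and 7 of them, and H3K9me2 regions at 6 and 7. Pcdh7, Pcdh9, Pcdh10, Pcdh15, Pcdh17 and Pcdh19 had regions in all 3 tables. For presence in all 3 within body plus 2500 bp, here and among the regulators below, no share of all genes is given. Longer genes have more room for a region. Pcdh1 and Pcdh12 lie within 500 kb of the clusters and are counted among the 30 neighbours too. Pcdh12, expressed in endothelium, had a G9a region with 225 and 641, compared with 1249 and 672 in the authors' deposited table (18:38280901-38283500, log2 1.15). Of 15 regulators of the clusters or partners of G9a, 11 had a first-pair and 7 a second-pair G9a region, 5 and 8 an H3K9me2 region, and 6 and 5 an H3K27me3 region. The shares of all genes were 76.7% and 55.5%, 48.1% and 38.8%, and 58.3% and 50.4%. Dnmt3b, which methylates DNA at protocadherin promoters, Setdb1, an H3K9 methyltransferase, the cohesin genes Rad21 and Stag1, the cohesin loader gene Nipbl, and Ehmt1 and Ehmt2 had regions in all 3 tables. Ehmt2, the gene of G9a itself, had a second-pair G9a region with 956 and 482, compared with 3000 and 1364 in the authors' deposited table (17:34904801-34909050). Its H3K9me2 region had 548 and 781, compared with 2603 and 2160 in the authors' deposited table (log2 1.84). At Dnmt3b the leading H3K9me2 region had 259 and 482, compared with 2707 and 2553 in the authors' deposited table (log2 2.82), and at neither gene did the pairs overlap there.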

How the data were processed

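BWA 0.7.10-r789, SAMtools 1.1 and the mm10 build are named in the submitters' processing notes. Each antibody has 1 table that the authors deposited, with no header line, whose column 11 holds 4 whole-number values and a -log10 p. The sources used here name no caller, scaling or input correction, and the values were not treated as raw read counts. Replicate numbers of the labels are not carried by the columns, and input libraries were not used here.

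The members and lists were chosen with earlier results of these data known. The gene table of GRCm38.p6 gave the windows. 3 gene models that run over all clusters (Gm37013, Gm38666 and Gm38667) stayed out of the members and the neighbours. Sums per library were compared by exact permutation tests, and limma 3.58.1 (R 4.3.3) was fitted to log2(value + 1) of all regions of each table, with Benjamini-Hochberg adjustment, after being tested on simulated data. Log2 differences understate the change of low regions. Named regions are those whose deposited p ranks in the lowest 3 of their cluster, antibody and direction, and regions at starts; the text names most of them. The position relative to starts was chosen after the data were seen. Strand was taken from the promoter table for 17492 genes; it holds no chromosome 18 genes, and sequences are not reported here.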

Additional observations from a re-analysis of the deposited data

How the results depend on the processing

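No paired analysis was possible because the columns carry no replicate numbers. Keeping regions with a deposited p of at most 1e-04 left 22 first-pair and 7 second-pair G9a regions at Pcdha, 13 and 5 at Pcdhb and 7 first-pair ones at Pcdhg; first-pair H3K9me2 regions became 4 at Pcdhb and 1 at Pcdhg, and H3K27me3 regions 17 (first pair, Pcdhb) and 0 (second pair, Pcdhg). Keeping regions whose pairs did not overlap left second-pair G9a counts of 6 at Pcdha and 5 at Pcdhb, first-pair G9a counts of 10 at Pcdhb and 6 at Pcdhg, 12 second-pair H3K9me2 regions at Pcdha and 5 first-pair ones at Pcdhb, and H3K27me3 counts of 41 (first) and 27 (second) at Pcdha and 0 (second) at Pcdhg. Without flanks, 15 first-pair H3K27me3 regions remained at Pcdhb. The counts listed here are those that fell most. Among those that fell less, 25 first-pair G9a regions at Pcdha and 37 second-pair H3K27me3 regions at Pcdhb had pairs without overlap. Over all regions, pairs did not overlap in 61.3% for G9a, 67.9% for H3K9me2 and 69.2% for H3K27me3.

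At a p of at most 1e-04 the H3K9me2 log2 differences were -0.23 at Pcdha, 0.65 at Pcdhb and 0.35 at Pcdhg, which changed sign there, and the shifts between clusters were -0.88 (Pcdha to Pcdhb), -0.63 (Pcdha to Pcdhg) and 0.25 (Pcdhb to Pcdhg). For H3K27me3 they were -2.56 at Pcdhg, with shifts of 2.83 and 3.14 against it, and the G9a shift of Pcdha to Pcdhb was -0.44. H3K9me2 at Pcdha was -0.12 after division by library sums and -0.20 with a flank of 5000 bp. Without flanks the Pcdha to Pcdhb shift was -0.41 for G9a and -0.38 for H3K27me3, and -0.15 for H3K27me3 with 5000 bp. Chosen after seeing the data, start distances of 1000 and 5000 bp gave shifts of -0.28 and -0.27 for G9a, which reversed its sign, and -0.39 and 0.32 for H3K9me2. H3K27me3 gave 0.54 at 5000 bp, and a p of at most 1e-04 gave 0.66 for H3K27me3 and 0.82 for H3K9me2.

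Leaving out each library in turn gave G9a differences of -1.20 to -0.21 at Pcdha, -0.96 to 0.14 at Pcdhb and -3.03 to -0.55 at Pcdhg, and limma calls of 0 to 6, 0 to 8 and 0 to 7. G9a shifts were -0.35 to -0.24 (Pcdha to Pcdhb), 0.34 to 1.83 (Pcdha to Pcdhg) and 0.69 to 2.07 (Pcdhb to Pcdhg). H3K9me2 differences were -0.19 to -0.17, 0.31 to 0.50 and -0.18 to 0.07 at the 3 clusters, with shifts of -0.67 to -0.50, -0.24 to -0.01 and 0.34 to 0.58. H3K27me3 differences were -0.14 to 0.24, 0.17 to 0.43 and -1.90 to -0.58, with shifts of -0.31 to -0.18, 0.46 to 2.08 and 0.75 to 2.30. The start shifts at Pcdha were 0.03 to 0.40 for G9a, 0.48 to 0.64 for H3K9me2 and 0.54 to 0.64 for H3K27me3. Second-pair G9a counts without library 1 of the second pair were 14, 14 and 4. Without library 2 of the second pair, 3 named regions reversed: G9a 15586 bp upstream of Pcdhac1 (-0.0289, with up to 2.26 without another library), G9a at Pcdhb22 (-0.0605, up to 2.32) and H3K9me2 at the end of Pcdha (-0.0252, up to 1.87). The causes were not tested. With 2 libraries a pair and no stated depth, small differences cannot be resolved.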
